A study of Mus musculus with 6 samples.

Results

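The genes described here are 9 markers of mouse blood monocytes, read in RNA of sorted regulatory T cells (Tregs) after experimental stroke. They are the 6 classical markers Ly6c2, Plac8, Lyz1, Lyz2, Vcan and F10 and the 3 nonclassical markers Spn, Treml4 and Ace, taken by symbol from the 51361 genes of the deposited count table. All 9 were found there, had counts in each of the 6 libraries and passed the filter on low counts, which left 16657 genes. Every mouse carried the transgene Tg(Foxp3-DTR/EGFP)23.2Spar, in which the Foxp3 promoter drives a diphtheria toxin receptor joined to a green fluorescent protein, on a C57BL/6N background, and was a male 9 weeks old. The 6 libraries formed 3 groups of 2. The tMCAO brain group held Tregs from brain 14 days after transient middle cerebral artery occlusion (tMCAO, 60 min), a stroke model that closes an artery to the brain and then reopens it. The tMCAO blood group held Tregs from blood of mice treated in the same way, and the sham blood group held Tregs from blood of sham-operated mice. A sham brain group is not among the 3 groups, and the labels give no time after the sham operation. Each library came from 500 to 1000 cells sorted as CD4+CD25+Foxp3+. The labels state neither whether a library pooled animals nor whether both libraries of a group stem from different animals, and p-values therefore refer to the spread between libraries, possibly a technical one. With 2 libraries in a group, a gene that did not pass the test is not shown to be unchanged.

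Monocytes are white cells made in bone marrow that circulate in blood. Classical monocytes carry much Ly6C on their surface, leave the blood at sites of injury and can become macrophages there, while nonclassical monocytes carry little Ly6C, depend on the transcription factor Nr4a1 and patrol the inner wall of blood vessels. Several of the 9 markers are also made by other cells. Lyz2 is abundant in microglia, macrophages and neutrophils, Spn and Ly6c2 are found on T cells, and Ace is found on endothelium.

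Markers of other cells were present in all libraries of this sort. Total counts ranged from 14348179 to 24460894 per library. In CPM (counts per 1000000 counts of library size, adjusted by the TMM method), Foxp3 had 0.726 and 19.6 CPM in the tMCAO brain libraries, 0.538 and 5.18 CPM in the tMCAO blood libraries and 50.1 and 60.7 CPM in sham blood. The sum of 14 T cell identity genes was 344 and 1434 CPM in the tMCAO brain libraries, 656 and 3387 CPM in the tMCAO blood libraries and 8365 and 8468 CPM in sham blood. The sum of 15 genes shared by myeloid cells (pan-myeloid genes such as Csf1r, Itgam and Spi1) was 29988 and 17222 CPM in the tMCAO brain libraries, 20520 and 10667 CPM in the tMCAO blood libraries and 2445 and 2783 CPM in sham blood. The T cell sum was thus lower, and the pan-myeloid sum higher, in all 4 tMCAO libraries than in both sham libraries. Library 1 of tMCAO brain and library 1 of tMCAO blood had the lowest T cell sums and Foxp3 under 1 CPM, and the calls without them are given beside the counts of calls below. The 9 members took 2.56% and 0.902% of counts in the tMCAO brain libraries, 2.27% and 0.829% in the tMCAO blood libraries and 0.690% and 0.532% in sham blood, most of it from Lyz2. Fewer cells of a type and less RNA per cell cannot be told apart in such bulk libraries. The part of other cell types in the results below was not tested.

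Lyz1, called in all 3 comparisons below, and Lyz2, called in none, are neighbouring lysozyme genes on chromosome 10 of GRCm38, both on the minus strand. Lyz1 lies at chr10:117287797-117292868 and Lyz2 at chr10:117277331-117282321 (GENCODE M21). Lyz1 encodes the P lysozyme best known from Paneth cells of the gut, and Lyz2 the M lysozyme of myeloid cells. Their coding sequences have 444 bases each without the stop codon and differ at 22 of them. The first 240 bases are shown because read assignment between the genes bears on every Lyz1 value, and capitals mark the 17 bases that differ in this stretch.
Lyz1 coding sequence: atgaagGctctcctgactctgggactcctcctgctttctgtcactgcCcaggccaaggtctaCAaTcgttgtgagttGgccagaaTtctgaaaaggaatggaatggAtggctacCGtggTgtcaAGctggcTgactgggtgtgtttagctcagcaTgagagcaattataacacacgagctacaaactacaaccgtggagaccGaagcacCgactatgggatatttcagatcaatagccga
Lyz2 coding sequence: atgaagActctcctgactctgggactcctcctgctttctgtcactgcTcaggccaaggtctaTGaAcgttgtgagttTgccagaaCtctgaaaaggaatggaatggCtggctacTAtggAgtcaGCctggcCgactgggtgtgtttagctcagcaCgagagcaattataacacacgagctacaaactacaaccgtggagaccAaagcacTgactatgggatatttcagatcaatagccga
Over their full length the coding sequences were 95.05% identical, with a longest identical run of 118 bases. Over whole annotated transcripts, 74 of the 1189 stretches of 75 bases (the read length) in Lyz1, or 6.22%, also occurred in Lyz2, and they were 5.96% of the stretches in Lyz2. Such shares, here and below, refer to single reads. The libraries were paired-end, so the share of read pairs that match both genes can be lower. How the authors treated reads with several positions is not given in the sources used here. Lyz2 had 69108 to 501310 counts in a library and Lyz1 19 to 3736, and 5.96% of the Lyz2 counts is more than the whole Lyz1 count in each of the 6 libraries. By sequence alone, the uncertainty of the Lyz1 values is therefore not limited to the 6.22%. In the sham blood libraries, 5.96% of the Lyz2 counts would be 5460 and 4117 counts, while Lyz1 had 19 and 25 counts in all. No more than these can stem from Lyz2 reads there. Lyz1 took 0.0207% and 0.0362% of the counts of both genes in sham blood. That share was 0.0483% and 0.134% in the tMCAO brain libraries and 0.927% and 1.64% in the tMCAO blood libraries. Of the tMCAO libraries, tMCAO brain 1 was thus nearest to the sham blood shares and the tMCAO blood libraries farthest. How many Lyz1 counts in the tMCAO libraries stem from Lyz2 reads was not tested.

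The promoters of the 3 genes called between brain and blood of tMCAO mice, and that of Lyz2 beside its neighbour, are shown as 250 bases before the most upstream annotated start, from RefSeq on GRCm38.p6, in the direction of the gene. Capitals mark matches, on either strand, to the core bound by PU.1 (GAGGAA), the core bound by C/EBP factors (TTGCNNAA) and the half-site bound by NR4A1 (AAAGGTCA). The plain lower-case sequence of Lyz2 holds none of these letters. Plac8 is from chr5:100572206-100572455 on the minus strand, Lyz1 from chr10:117292869-117293118 on the minus strand, Lyz2 from chr10:117282273-117282522 on the minus strand and Treml4 from chr17:48264045-48264294 on the plus strand. By GENCODE M21, Plac8 reaches to chr5:100572245 and Lyz2 to chr10:117282321, so the last bases of these 2 windows lie inside the genes as annotated there. They include the Plac8 match 15 bases before the RefSeq start.
Plac8 promoter: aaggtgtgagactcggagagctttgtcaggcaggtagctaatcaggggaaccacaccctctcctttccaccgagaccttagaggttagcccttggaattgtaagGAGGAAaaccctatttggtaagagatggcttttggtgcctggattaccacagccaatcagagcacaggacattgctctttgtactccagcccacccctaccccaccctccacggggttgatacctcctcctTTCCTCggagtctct
Lyz1 promoter: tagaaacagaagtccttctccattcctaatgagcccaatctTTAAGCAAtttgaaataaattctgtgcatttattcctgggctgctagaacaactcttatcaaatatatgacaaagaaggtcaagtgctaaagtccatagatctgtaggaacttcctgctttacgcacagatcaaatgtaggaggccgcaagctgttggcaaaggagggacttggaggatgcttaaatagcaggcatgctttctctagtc
Lyz2 promoter: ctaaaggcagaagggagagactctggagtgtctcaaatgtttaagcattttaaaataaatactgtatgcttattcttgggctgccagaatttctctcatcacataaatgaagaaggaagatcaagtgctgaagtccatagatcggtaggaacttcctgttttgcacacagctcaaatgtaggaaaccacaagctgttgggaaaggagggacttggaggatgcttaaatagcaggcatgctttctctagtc
Treml4 promoter: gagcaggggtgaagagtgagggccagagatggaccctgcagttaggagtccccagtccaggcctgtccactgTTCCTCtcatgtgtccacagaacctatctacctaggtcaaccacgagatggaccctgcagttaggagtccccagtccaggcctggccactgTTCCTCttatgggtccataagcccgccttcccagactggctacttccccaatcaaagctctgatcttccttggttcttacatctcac
Over the annotated starts of the 9 genes, GAGGAA occurred before at least 1 start of Ly6c2, Plac8, Treml4 and Ace, against 23.3% of 32851 promoters of the same length. The 9 genes had 12 windows, 2 each for Ly6c2, Plac8 and Ace. The shares over all promoters count each window by itself, so genes with 2 windows had more room for a match. TTGCNNAA occurred before Lyz1 and before a second start of Plac8, against 9.56% of promoters. These motifs share no letters in the windows shown. AAAGGTCA, held by 1.34% of promoters, occurred in no member window. The Lyz1 and Lyz2 windows matched at 200 of 252 aligned positions, 79.4%. The single match in the Lyz1 window, 209 bases before the start, reads TTAAGCAA. At the aligned place the Lyz2 window reads TTAAGCAT, which is not a match to the core. These matches describe letters and not binding sites.

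Of the classical markers Ly6c2 and Plac8, Plac8 passed the test in 1 comparison and Ly6c2 in none. Ly6c2 encodes the Ly6C antigen and lies at chr15:75108158-75111970. Ly6c2 had 258.8 and 287.7 CPM in the tMCAO brain libraries, 278.7 and 310.5 CPM in the tMCAO blood libraries and 309.6 and 94.8 CPM in sham blood. The 5 libraries other than sham blood 2 lay close together, sham blood 2 lay apart from them, and the groups overlapped in each comparison. Its log2 change was -0.11 ± 0.54 (SE) in tMCAO brain relative to tMCAO blood (edgeR quasi-likelihood test, Benjamini-Hochberg adjusted p = 0.916), 0.54 ± 0.54 for tMCAO blood against sham blood (adjusted p = 0.533) and 0.43 ± 0.54 for tMCAO brain against sham blood (adjusted p = 0.642). Both changes against sham blood were below 0 without sham blood library 2, at -0.08 and -0.19.

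Ly6c1, a close relative of Ly6c2 that is expressed on T cells and endothelium, had 0 and 0.572 CPM in the tMCAO brain libraries, 22.3 and 56.6 CPM in the tMCAO blood libraries and 294 and 268 CPM in sham blood. Ly6c1 was thus lowest in both brain libraries and highest in both sham libraries. It was 122-fold lower in tMCAO brain than in tMCAO blood (edgeR adjusted p = 0.0302) and 867-fold lower than in sham blood (adjusted p = 0.0120). As a share of the counts of both genes, Ly6c1 took 0% (0 of 4278, which allows up to 0.0701%) and 0.198% in the tMCAO brain libraries, 7.40% and 15.4% in the tMCAO blood libraries and 48.7% and 73.8% in sham blood. Of the stretches of 75 bases in Ly6c2 transcripts, 9.46% also occur in Ly6c1, where they are 14.7% of all stretches. The Ly6c1 calls were lost without sham blood library 1 or 2 (adjusted p = 0.0931 and 0.0912 against tMCAO blood, 0.107 and 0.0979 against sham blood), and the call against tMCAO blood also without tMCAO blood library 2 (0.0667).

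Plac8, which encodes a small cysteine-rich protein of myeloid cells and lymphocytes, lies at chr5:100553725-100572245 and was lower in brain than in blood after stroke. It had 89.0 and 209 CPM in the tMCAO brain libraries, 996 and 956 CPM in the tMCAO blood libraries and 305 and 208 CPM in sham blood. Both tMCAO blood libraries lay well above the other 4, whose values overlapped. Plac8 was 6.55-fold lower in tMCAO brain than in tMCAO blood (log2 change -2.71 ± 0.50, edgeR adjusted p = 0.0400). That call did not hold without any single library (adjusted p = 0.0532 without tMCAO brain 2, the lowest of the 6, to 0.111 without sham blood 2), nor in a fit of only these groups (0.0989). Against sham blood, Plac8 in tMCAO blood was at a 3.80-fold higher value (log2 change 1.93 ± 0.48, adjusted p = 0.0618), with no overlap between the groups. In tMCAO brain its log2 change against sham blood was -0.78 ± 0.47 (adjusted p = 0.319).

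**Figure D1:**
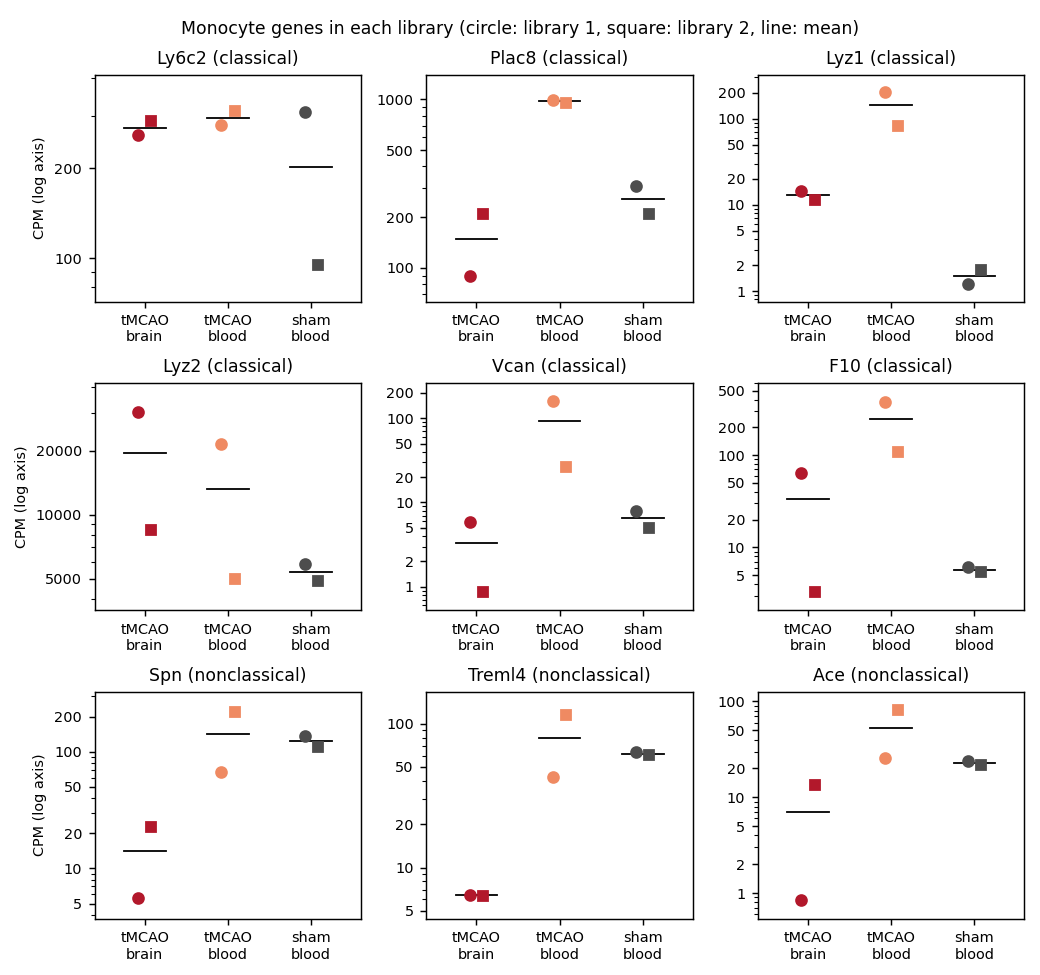
Level of each of the 9 monocyte markers in CPM (log axis, own range per panel) in the 6 libraries, grouped as tMCAO brain, tMCAO blood and sham blood; circles are library 1, squares library 2 and lines group means. Plac8, Lyz1, Vcan and F10 are at their highest in both tMCAO blood libraries, and Spn, Treml4 and Ace at their lowest in both tMCAO brain libraries.

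Of the lysozymes, Lyz1 passed the test in all 3 comparisons and Lyz2 in none. Lyz1 had 14.6 and 11.4 CPM in the tMCAO brain libraries, 201 and 83.2 CPM in the tMCAO blood libraries and 1.22 and 1.76 CPM in sham blood. In counts, this was 242 and 278 in the tMCAO brain libraries, 3736 and 1669 in the tMCAO blood libraries and 19 and 25 in sham blood. The 3 groups did not overlap, with tMCAO blood highest and sham blood lowest. Lyz1 was 10.9-fold lower in tMCAO brain than in tMCAO blood (log2 change -3.45 ± 0.50, edgeR adjusted p = 0.0270). In tMCAO blood it was 95.2-fold above sham blood (log2 change 6.57 ± 0.59, adjusted p = 0.0313). It was 8.71-fold higher in tMCAO brain than in sham blood (log2 change 3.12 ± 0.52, adjusted p = 0.0212). The brain and blood call held in 10 of 15 alternative settings and was lost without tMCAO brain 1 (adjusted p = 0.0736), tMCAO brain 2 (0.0885), sham blood 1 (0.0791) or sham blood 2 (0.0801), and in a fit of only these groups (0.0735). The tMCAO blood and sham blood call was lost without tMCAO blood 1 (0.0711), sham blood 1 (0.192) or sham blood 2 (0.262), and the tMCAO brain and sham blood call without tMCAO brain 1 (0.0605), sham blood 1 (0.182) or sham blood 2 (0.151), by limma-voom (0.0792), and when the fit was scaled to the pan-myeloid genes (log2 change 0.02, adjusted p = 0.976). The 3 comparisons share groups, so these calls are not independent of each other.

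Lyz2 had 30329 and 8455 CPM in the tMCAO brain libraries, 21488 and 4980 CPM in the tMCAO blood libraries and 5882 and 4863 CPM in sham blood. The libraries of each tMCAO group stood several-fold apart, with library 1 above library 2, and tMCAO brain and tMCAO blood overlapped. Its log2 change was 0.55 ± 0.88 in tMCAO brain relative to tMCAO blood (edgeR adjusted p = 0.717), 1.30 ± 0.90 for tMCAO blood against sham blood (adjusted p = 0.368) and 1.85 ± 0.91 for tMCAO brain against sham blood (adjusted p = 0.230). Without tMCAO brain library 1 the first of these was -0.66, and without tMCAO blood library 1 the second was -0.11. Microglia markers (12 genes) summed to 10008 and 9410 CPM in the tMCAO brain libraries, 459 and 483 CPM in the tMCAO blood libraries and 1183 and 1343 CPM in sham blood. Selplg alone had 1021 and 1113 CPM in sham blood and 273 and 354 CPM in the tMCAO blood libraries. The higher sum in sham blood than in tMCAO blood thus came mostly from that gene. Sall1, another of the 12, had no count in any blood library. Neutrophil markers (14 genes) summed to 2138 and 289 CPM in the tMCAO brain libraries, 330 and 6667 CPM in the tMCAO blood libraries and 15.5 and 19.9 CPM in sham blood, with 2, 5, 2, 0, 9 and 11 of the 14 at 0 in the libraries in that order. The defining neutrophil gene Ly6g had 1.27 and 0 CPM in the tMCAO brain libraries, 0.754 and 12.8 CPM in the tMCAO blood libraries and 0.0642 and 0 CPM in sham blood.

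As a share of the counts of both lysozymes, Lyz1 took 0.0483% (95% Wilson interval 0.0425 to 0.0547%) and 0.134% (0.119 to 0.151%) in the tMCAO brain libraries. Its share was 0.927% (0.898 to 0.957%) and 1.64% (1.57 to 1.72%) in the tMCAO blood libraries and 0.0207% (0.0133 to 0.0324%) and 0.0362% (0.0245 to 0.0534%) in sham blood. The groups did not overlap in this share, with both tMCAO blood libraries highest and both sham libraries lowest, and the intervals of tMCAO brain 1 and sham blood 2 overlapped. The intervals cover counting error only, since the libraries were amplified by PCR without molecular identifiers. With 2 libraries in each group an exact permutation test cannot give a p below 0.333.

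The secreted products Vcan and F10 had their highest values in tMCAO blood, with wide spreads. Vcan encodes versican, a large proteoglycan of the extracellular matrix, and lies at chr13:89655312-89742509, where the annotation places the overlapping genes Gm16318 and Gm4117, neither of them protein-coding. It had 5.81 and 0.858 CPM in the tMCAO brain libraries, 160 and 26.5 CPM in the tMCAO blood libraries and 8.02 and 4.93 CPM in sham blood. Both tMCAO blood libraries were above the other 4, and tMCAO brain and sham blood overlapped. Vcan was 28.4-fold lower in tMCAO brain than in tMCAO blood in the fitted value (log2 change -4.83 ± 1.21), which did not pass (edgeR adjusted p = 0.0705). The log2 change of Vcan was 3.85 ± 1.15 in tMCAO blood against sham blood (adjusted p = 0.0889) and -0.98 ± 1.08 in tMCAO brain against sham blood (adjusted p = 0.594).

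F10 encodes coagulation factor X, the protease that turns prothrombin into thrombin, and lies at chr8:13037308-13056676. It had 63.8 and 3.31 CPM in the tMCAO brain libraries, 382 and 109.5 CPM in the tMCAO blood libraries and 6.10 and 5.42 CPM in sham blood. Both tMCAO blood libraries lay above the other 4, and the brain libraries lay on either side of the sham libraries. The log2 change of F10 was -2.88 ± 1.27 in tMCAO brain relative to tMCAO blood (edgeR adjusted p = 0.201), 5.41 ± 1.44 in tMCAO blood against sham blood (adjusted p = 0.0686) and 2.54 ± 1.27 in tMCAO brain against sham blood (adjusted p = 0.238). Without tMCAO brain library 1 the last of these was -0.81.

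The 3 nonclassical markers all had lower values in tMCAO brain than in either blood group, and 1 of them, Treml4, passed the test. Treml4 encodes a receptor of the TREM family found on nonclassical monocytes and lies at chr17:48264295-48275360. It had 6.41 and 6.37 CPM in the tMCAO brain libraries, 42.9 and 115.7 CPM in the tMCAO blood libraries and 63.4 and 60.3 CPM in sham blood. The brain libraries lay close to each other and below all 4 blood libraries, and tMCAO blood spread to both sides of sham blood. Treml4 was 12.4-fold lower in tMCAO brain than in tMCAO blood (log2 change -3.63 ± 0.51, edgeR adjusted p = 0.0260) and 9.67-fold lower than in sham blood (log2 change -3.27 ± 0.50, adjusted p = 0.0179). Its log2 change between tMCAO blood and sham blood was 0.36 ± 0.46 (adjusted p = 0.633), and -0.53 without tMCAO blood library 2. Both brain calls were lost without tMCAO brain 1 (adjusted p = 0.0784 against tMCAO blood and 0.0691 against sham blood), tMCAO brain 2 (0.0819 and 0.0563), sham blood 1 (0.083 and 0.128) or sham blood 2 (0.0807 and 0.12), and that against tMCAO blood in a fit of only these groups (0.0772). With library 1 of both tMCAO groups left out, a setting chosen after seeing the data, the adjusted p was 5.91e-05 and 5.2e-05, but each tMCAO group then had 1 library and the spread came from the sham blood libraries alone. Over all 15 alternatives the adjusted p of Treml4 ranged from 1.27e-14 to 0.083 against tMCAO blood and from 1.53e-12 to 0.128 against sham blood.

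Spn encodes CD43, a long mucin-like protein that is high on nonclassical monocytes and also present on T cells, and lies at chr7:127132232-127137823. It had 5.57 and 22.6 CPM in the tMCAO brain libraries, 67.3 and 218 CPM in the tMCAO blood libraries and 136 and 109 CPM in sham blood. Both brain libraries were below all blood libraries, in which the groups overlapped. The log2 change of Spn was -3.34 ± 0.83 in tMCAO brain relative to tMCAO blood (edgeR adjusted p = 0.0695), and it was -3.12 ± 0.82 for tMCAO brain against sham blood (adjusted p = 0.0621). For tMCAO blood against sham blood it was 0.22 ± 0.76 (adjusted p = 0.872), and -0.87 without tMCAO blood library 2. Within each tMCAO group Spn was lower in library 1, the library that also had the lower T cell sum, and so were Ace and Ly6c2. Lyz1, Lyz2, Vcan and F10 were higher in library 1 of each tMCAO group, and Plac8 and Treml4 were mixed. A link of these levels to the T cell sum was not tested.

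Ace encodes angiotensin-converting enzyme and lies at chr11:105967945-105989964, where it overlaps the annotated gene Gm11651. It had 0.847 and 13.3 CPM in the tMCAO brain libraries, 25.8 and 80.7 CPM in the tMCAO blood libraries and 24.1 and 21.6 CPM in sham blood. Both brain libraries were below the 4 blood libraries, and tMCAO blood was above sham blood without overlap, tMCAO blood 1 by little. The log2 change of Ace was -2.90 ± 1.16 in tMCAO brain relative to tMCAO blood (edgeR adjusted p = 0.167), 1.22 ± 1.09 for tMCAO blood against sham blood (adjusted p = 0.485) and -1.68 ± 1.11 for tMCAO brain against sham blood (adjusted p = 0.365). Of 8 endothelial markers, the defining gene Cldn5 had 1 count in tMCAO brain 1 and 0 in the other libraries. The endothelial sum was 76.0 and 58.8 CPM in the tMCAO brain libraries, 68.6 and 73.7 CPM in the tMCAO blood libraries and 177 and 204 CPM in sham blood. Most of the sham blood sum came from Pecam1 (122 and 140 CPM) and Vwf (46.5 and 59.0 CPM). Other markers went the other way, with Flt1 and Eng lower in both sham libraries than in all tMCAO libraries and Cdh5 without a count in sham blood.

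Across the 9 genes, 3 were called lower in tMCAO brain than in tMCAO blood (Plac8, Lyz1 and Treml4), where 1.37% of all tested genes were called lower. In the same comparison 7 of 9 were lower without overlap between the groups, against 25.9% of all genes, and the median log2 change of the 9 was -2.90, against 0.06 over all genes. Ly6c2 and Lyz2 were the 2 members whose groups overlapped. By edgeR, the DESeq2 Wald test and limma-voom, 0 of 9 were called higher, against 3.53%, 12.5% and 5.99% of all genes in that order. Of the 9, 0 were higher without overlap (31.4% of all genes). In tMCAO blood against sham blood, 1 of 9 was called higher (Lyz1), against 4.33% of all genes, and 5 of 9 (Plac8, Lyz1, Vcan, F10 and Ace) were higher without overlap, against 33.6% of all genes. By the same 3 tests 0 of 9 were called lower, against 3.15%, 10.4% and 3.73% of all genes, and 0 were lower without overlap (30.4% of all genes). The median log2 change was 1.30, against 0.11 over all genes. In tMCAO brain against sham blood, 1 of 9 was called higher (Lyz1) and 1 lower (Treml4), against 8.01% and 2.62% of all genes. There 2 of 9 were higher without overlap (34.9% of all genes), and 3 of 9, the nonclassical ones, were lower without overlap (29.7% of all genes), with a median of -0.78 against 0.09. A fit of only tMCAO brain and tMCAO blood called 26 genes in all and 0 of the 9 members. No gene at all was called in tMCAO blood against sham blood without tMCAO blood 1, sham blood 1 or sham blood 2. Nor was any called in tMCAO brain against sham blood without sham blood 1 or sham blood 2. Calls lost in those settings are therefore not particular to the genes named. Without library 1 of both tMCAO groups, a setting chosen after seeing the data in which each lone library is assumed to vary as the sham libraries do, 7 of 9 were called lower in tMCAO brain against tMCAO blood (8% of all genes) and 7 of 9 higher in tMCAO blood against sham blood (11.2% of all genes). In tMCAO brain against sham blood that setting called 1 higher and 3 lower, against 17.7% and 9.68% of all genes.

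**Figure D2:**
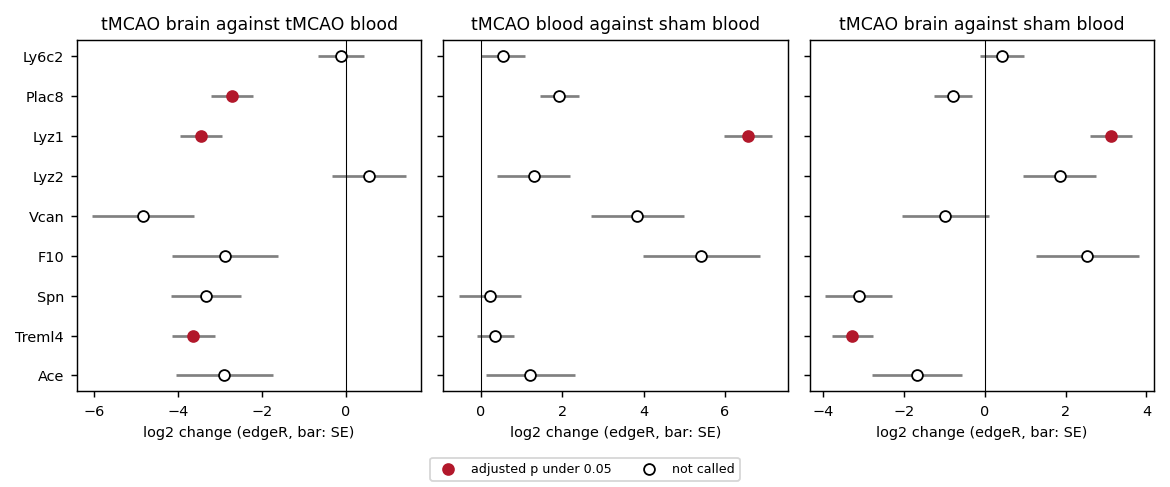
Log2 change of the 9 markers in the 3 comparisons from the edgeR fit (x axis) with the standard error as a bar; filled points passed an adjusted p of 0.05 and open points did not. In tMCAO brain against tMCAO blood 8 of the 9 points lie below 0, from -0.11 for Ly6c2 to -4.83 for Vcan, with Lyz2 at 0.55.

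Ratios between members within a library do not depend on its total. Ly6c2 had 40.4 and 45.1 counts for each Treml4 count in tMCAO brain, 6.50 and 2.69 in the tMCAO blood libraries and 4.88 and 1.57 in sham blood. The brain libraries were thus close to each other and above all blood libraries in this ratio, and the blood groups overlapped. Per 1000 CPM of the 15 pan-myeloid genes, Treml4 had 0.214 and 0.370 CPM in the tMCAO brain libraries, 2.09 and 10.8 CPM in the tMCAO blood libraries and 25.9 and 21.7 CPM in sham blood. On that scale the 3 groups did not overlap, with sham blood highest. The 15 genes are not particular to monocytes, and the microglia marker sums given above were highest in both tMCAO brain libraries. The part of microglia in this scale was not tested. Lyz1 on the same scale had 0.488 and 0.659 CPM in the tMCAO brain libraries, 9.80 and 7.80 CPM in the tMCAO blood libraries and 0.499 and 0.632 CPM in sham blood, so that tMCAO brain and sham blood overlapped.

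**Figure D3:**
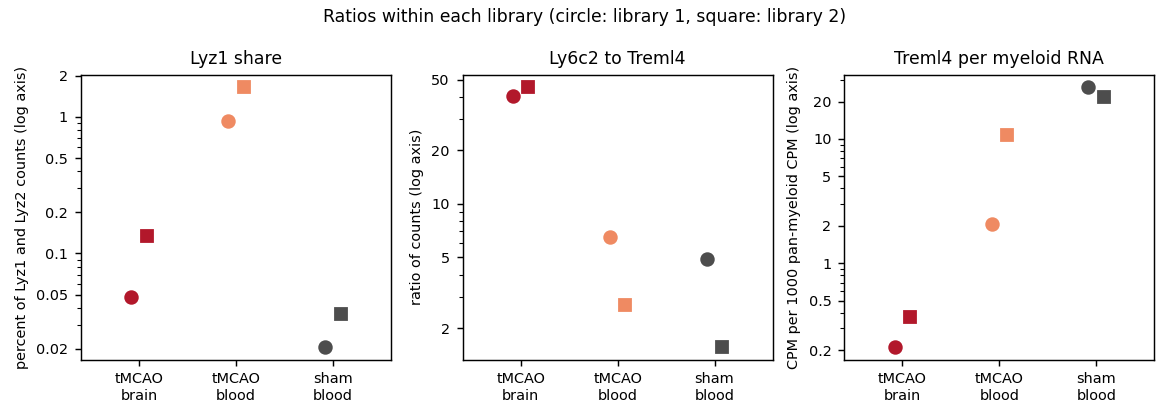
Ratios within each library, all on log axes: the Lyz1 share of Lyz1 and Lyz2 counts in percent, counts of Ly6c2 per count of Treml4, and Treml4 CPM per 1000 CPM of the pan-myeloid genes; circles are library 1 and squares library 2. The Lyz1 share is highest in tMCAO blood (0.927% and 1.64%), and the ratio of Ly6c2 to Treml4 is highest in tMCAO brain (40.4 and 45.1).

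When the fit was scaled to the pan-myeloid genes, the median of all genes moved to -0.55 in tMCAO brain against tMCAO blood, to -2.30 in tMCAO blood against sham blood and to -2.97 in tMCAO brain against sham blood. Treml4 lay below those medians in the first and last comparisons, at log2 changes of -4.47 (edgeR adjusted p = 0.0468) and -6.35 (adjusted p = 0.00194). The adjusted p-values on this scale test a change from 0 and not from the median of all genes. In the 3 comparisons in that order, 0.588%, 53.9% and 67.2% of all genes were called lower on this scale, and 0.522%, 1.33% and 2.76% higher. Plac8 was at -3.19 in the first comparison (adjusted p = 0.0891, range over its 15 alternatives 1.05e-07 to 0.111). Lyz1 was at -3.94 in tMCAO brain against tMCAO blood (adjusted p = 0.0252), at 3.96 in tMCAO blood against sham blood (adjusted p = 0.00388) and at 0.02 in tMCAO brain against sham blood (adjusted p = 0.976). Over the 15 alternatives the adjusted p of Lyz1 ranged from 1.32e-13 to 0.0885, from 3.63e-35 to 0.262 and from 9.65e-11 to 0.976 in those comparisons. Ly6c2 on this scale was at -2.67 in tMCAO brain against sham blood (adjusted p = 0.0131), close to the median of all genes there, and its adjusted p was above 0.05 in the other 14 alternatives.

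Levels of different members can be compared per length of annotated exon. In CPM per kilobase, Lyz2 was the highest of the 9 in all 6 libraries, with 23046 and 6425 in the tMCAO brain libraries, 16328 and 3784 in the tMCAO blood libraries and 4470 and 3695 in sham blood. Plac8 had 55.9 and 131 CPM per kilobase in the tMCAO brain libraries, 626 and 600 in the tMCAO blood libraries and 192 and 131 in sham blood. Ly6c2 had 94.5 and 105 CPM per kilobase in the tMCAO brain libraries, 102 and 113 in the tMCAO blood libraries and 113 and 34.6 in sham blood. Plac8 was second in 5 libraries and Ly6c2 in tMCAO brain 1. Vcan, with the longest annotated exon length of the 9, had 0.402 and 0.0593 CPM per kilobase in the tMCAO brain libraries, 11.1 and 1.83 in the tMCAO blood libraries and 0.555 and 0.341 in sham blood.

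Other genes of classical monocytes gave a mixed picture in the same libraries. Of 20 such genes, 7 were called lower in tMCAO brain against tMCAO blood (edgeR, against 1.37% of all genes), with a median log2 change of -1.55. Ifitm6, an interferon-inducible membrane protein, had 20.03 and 18.6 CPM in the tMCAO brain libraries, 659 and 349 CPM in the tMCAO blood libraries and 91.2 and 46.3 CPM in sham blood, and was 26.1-fold lower in tMCAO brain than in tMCAO blood (edgeR adjusted p = 0.0182). The calcium-binding proteins S100a6 (16.1-fold lower, adjusted p = 0.0250) and S100a4 (29.5-fold lower, adjusted p = 0.0324) and the guanine deaminase Gda (52.8-fold lower, adjusted p = 0.0343) fell in the same comparison. Cd14, the co-receptor for endotoxin that macrophages and microglia also carry, had 3139 and 2614 CPM in the tMCAO brain libraries, 590 and 164 CPM in the tMCAO blood libraries and 6.03 and 11.3 CPM in sham blood. In tMCAO blood against sham blood 4 of the 20 rose (4.33% of all genes), among them Fn1, fibronectin (192-fold, adjusted p = 0.0313), and Cd14 (43.6-fold, adjusted p = 0.0313). In tMCAO brain against sham blood Cd14 rose (333-fold, adjusted p = 0.00994) and Gda fell (17.2-fold lower, adjusted p = 0.0395). The sum of the 20 was 7638 and 4349 CPM in the tMCAO brain libraries, 26207 and 9840 CPM in the tMCAO blood libraries and 3694 and 3286 CPM in sham blood. The calls of Ifitm6, S100a6, S100a4 and Gda in tMCAO brain against tMCAO blood were lost without tMCAO brain 2 (adjusted p = 0.0571 to 0.100), sham blood 1 (0.0573 to 0.098) or sham blood 2 (0.055 to 0.0946). Those of Ifitm6, S100a6 and S100a4 were also lost without tMCAO brain 1 (0.0543 to 0.0782), and those of S100a4 and Gda without tMCAO blood 1 (0.0715 and 0.0735) or tMCAO blood 2 (0.0608 for both). All 4 calls in tMCAO blood against sham blood, of Fn1, Cd14, Ifitm6 and S100a6, were lost without tMCAO blood 1 (0.0711 to 0.137), sham blood 1 (0.192 to 0.193) or sham blood 2 (0.262 to 0.344), and that of S100a6 without either tMCAO brain library (0.0612 and 0.0608). Cd14 and Gda lost their calls in tMCAO brain against sham blood without sham blood 1 (0.108 and 0.166) or sham blood 2 (0.0993 and 0.190), and Gda also without tMCAO brain 2 (0.0692).

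Genes of nonclassical monocytes split into a lower and a higher set in brain. Of 18 such genes, 4 were called lower and 3 higher in tMCAO brain against tMCAO blood (edgeR, against 1.37% and 3.53% of all genes), with a median log2 change of -1.86. Cd300e, an activating receptor of nonclassical monocytes, had 0 counts in both tMCAO brain libraries, 22.9 and 74.8 CPM in the tMCAO blood libraries and 26.8 and 26.1 CPM in sham blood. Against a floor of 3 counts over the brain group, Cd300e was at least 682-fold lower than in tMCAO blood (edgeR adjusted p = 0.0187) and at least 362-fold lower than in sham blood (adjusted p = 0.0120). Adgre4, an adhesion receptor of the F4/80 family, had 2.96 and 0.490 CPM in the tMCAO brain libraries, 139 and 167 CPM in the tMCAO blood libraries and 102 and 113 CPM in sham blood. It was 90.9-fold lower than in tMCAO blood (adjusted p = 0.0228) and 63.7-fold lower than in sham blood (adjusted p = 0.0146). Nr4a1, which nonclassical monocytes need and which many activated cells induce, had 370 and 432 CPM in the tMCAO brain libraries, 24.8 and 51.5 CPM in the tMCAO blood libraries and 38.5 and 26.7 CPM in sham blood. It was 10.5-fold above the tMCAO blood level in tMCAO brain (adjusted p = 0.0238). Cx3cr1, the fractalkine receptor that microglia also carry, had 1005 and 695 CPM in the tMCAO brain libraries, 22.5 and 61.6 CPM in the tMCAO blood libraries and 43.2 and 51.6 CPM in sham blood. It was 20.2-fold above the tMCAO blood level in tMCAO brain (adjusted p = 0.0240), beside the microglia marker sums given above. In tMCAO blood against sham blood 3 of the 18 were called higher (4.33% of all genes), Fcgr4, Gngt2 and Dusp16. Fcgr4, the Fc receptor IV, was 16.8-fold higher there (adjusted p = 0.0313). The named brain calls were lost without sham blood library 1 (adjusted p = 0.0639 to 0.14) or 2 (0.0613 to 0.133). That of Adgre4 against tMCAO blood was lost without tMCAO blood 1 (0.0514) or 2 (0.0608), and that of Nr4a1 without tMCAO brain 2 (0.0553). All 3 calls in tMCAO blood against sham blood were lost without tMCAO blood 1, sham blood 1 or sham blood 2 (adjusted p up to 0.319), and that of Dusp16 without any of the other 3 libraries too (0.0508 to 0.0736).

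**Figure D4:**
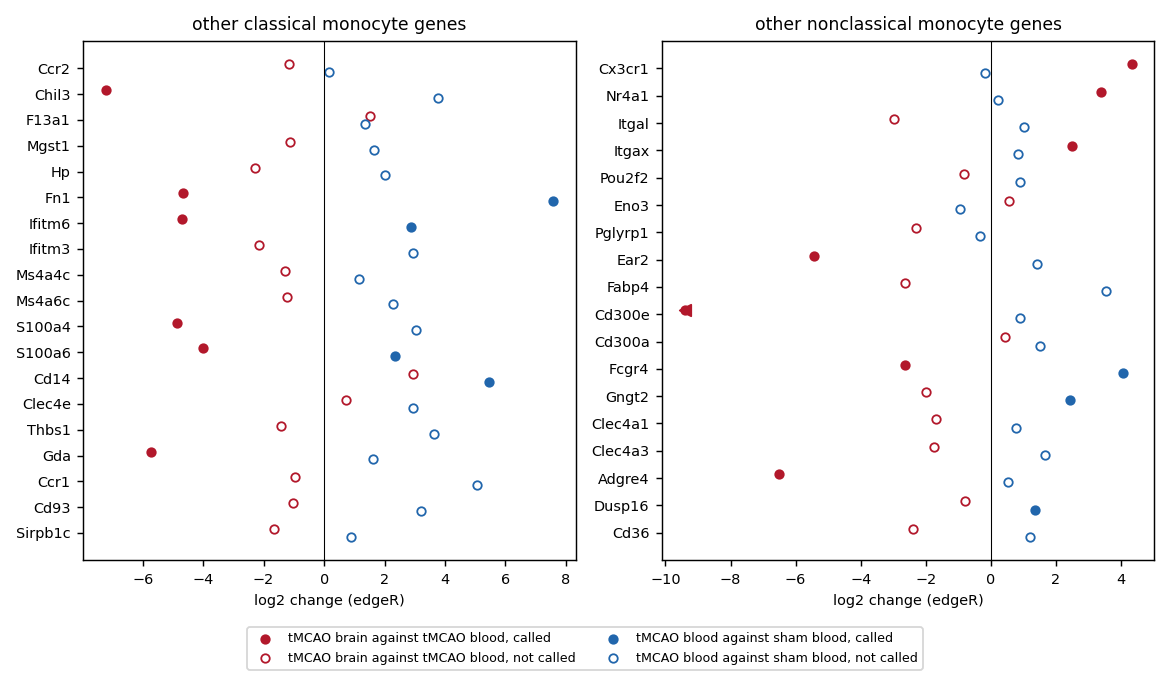
Log2 change of 19 of the 20 other classical (left) and 18 other nonclassical (right) monocyte genes in tMCAO brain against tMCAO blood (red) and in tMCAO blood against sham blood (blue), 2 comparisons that share the tMCAO blood libraries; filled points passed an adjusted p of 0.05, and the triangle marks a lower bound for Cd300e, which had no count in tMCAO brain. In red, 6 of the classical genes shown are called lower, and among the nonclassical genes 4 are called lower and 3 higher.

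F10 acts with other clotting genes that monocytes and macrophages make, of which 10 were listed and tested. In tMCAO brain 2 of the 10 were called higher than in tMCAO blood and 6 higher than in sham blood, against 3.53% and 8.01% of all genes (edgeR). In tMCAO blood 3 of the 10 were called higher than in sham blood, against 4.33% of all genes. F3, tissue factor, which starts clotting and is also made by astrocytes, had 9.92 and 29.5 CPM in the tMCAO brain libraries, 0.538 and 0.249 CPM in the tMCAO blood libraries and no count in sham blood. F3 in tMCAO brain was 49.5-fold above tMCAO blood (adjusted p = 0.0385) and at least 215-fold higher than in sham blood (adjusted p = 0.0150). F7, factor VII, the partner of F3, had 12.4 and 2.53 CPM in the tMCAO brain libraries, 118 and 17.3 CPM in the tMCAO blood libraries and no count in sham blood. F7 in tMCAO blood was at least 650-fold above sham blood (adjusted p = 0.0402). F3 was thus highest in both brain libraries, while F7, as F10, was highest in both tMCAO blood libraries. The call of F3 against tMCAO blood was lost without tMCAO brain 2 or any 1 of the 4 blood libraries (adjusted p up to 0.122). Its call against sham blood was lost without sham blood 1 or 2 (adjusted p up to 0.1099), and that of F7 without tMCAO blood 1, sham blood 1 or sham blood 2 (adjusted p up to 0.269).

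Genes with levels most like those of Ly6c2 and Treml4 were sought over the 6 libraries. Among 6452 genes averaging 20 CPM or more, the genes nearest to Ly6c2 by Pearson correlation of log2 CPM were Med13l, a Mediator subunit (r = 0.982), Clcn4, a chloride and proton exchanger (r = 0.960), and Npepl1, an aminopeptidase (r = 0.931). The genes nearest to Treml4 were Cep295, a centrosomal protein (r = 0.994), the integrin chain Itga6 (r = 0.993) and the lipid phosphatase Mtmr3 (r = 0.992). Their ranges were narrow beside those of the markers. Cep295 had 14.2 and 12.99 CPM in the tMCAO brain libraries, 21.96 and 31.0 CPM in the tMCAO blood libraries and 25.7 and 24.3 CPM in sham blood. These values of r describe 6 libraries in 3 groups that share depth and cell makeup, and carry no test.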

How the data were processed

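Messenger RNA of sorted Tregs was sequenced in 6 libraries (SMART-Seq ultralow input, Nextera XT, paired-end 75 bp, per the labels' protocols). The deposited values are whole-number counts per gene, made by the authors with STAR, HTSeq 0.11.2 and the build GRCm38, per the submitters' processing notes. Which STAR version and annotation release were used, how strand was set and how reads with several positions were counted is not given in the sources used here. Every row of the table names a gene, and 0 columns were left without a sample. Genes were filtered by filterByExpr (minimum count 10), given TMM factors and entered into edgeR 4.0.16 (R 4.3.3), whose quasi-likelihood test was applied with all 6 libraries in 1 fit (3 residual degrees of freedom) and Benjamini-Hochberg adjustment over 16657 genes in each of 3 comparisons (threshold 0.05). The standard error is the log2 change divided by the square root of F. Libraries of a group were separate by a chi-square test of their counts (25.3 to 219 per degree of freedom), which sets them against counting error only, so that separate preparations of the same cells could differ as much. All 9 members were named in every comparison; from each other list up to 4 called genes were named by smallest adjusted p. Ly6g, Cldn5 and Foxp3 are shown as defining markers, and the brain levels of F7 beside F3, chosen after their values were seen. Some genes that the rule names are not reported here or plotted. The members and lists were chosen with earlier results of these data known. Alternatives were DESeq2 size factors, the Wald test of DESeq2 1.42.0, voom in limma 3.58.1, no filter, a filter of 5 CPM in 2 libraries, only the 2 groups compared, a replicate block, scaling to pan-myeloid genes, each library left out, and 1 added after seeing the data. The test was checked on simulated counts. Sequences came from RefSeq (GRCm38.p6) and GENCODE M21.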

Additional observations from a re-analysis of the deposited data

How the results depend on the processing

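Over the 9 members, 3 comparisons and 15 alternatives, 298 of 405 log2 changes kept their direction and side of the threshold, 30 lost a call, 55 gained one and 22 changed sign; the cause was not tested. All genes called were, for tMCAO brain against tMCAO blood, tMCAO blood against sham blood and tMCAO brain against sham blood in that order, 816, 1246 and 1772 as reported; 3451, 3804 and 4007 by the DESeq2 Wald test; 3598, 3611 and 4458 with no filter; 185, 9193 and 11660 with pan-myeloid scaling; and 3609, 3850 and 4979 without the 2 libraries with Foxp3 under 1 CPM (added after seeing the data). The first count was 1446 by limma-voom, 1237 with the stricter filter and 26 in a fit of only the 2 groups compared, where the last was 2752. Pan-myeloid scaling split the calls into 87 higher and 98 lower, 221 and 8972, and 460 and 11200, against 588 and 228, 722 and 524, and 1335 and 437 as reported. Leaving out 1 library gave 31 to 313, 0 to 1240 and 0 to 2080 calls, with 0 in both sham comparisons without either sham library.

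Members called lower in tMCAO brain against tMCAO blood numbered 3 as reported, 7 by the Wald test (8.18% of all genes), with no filter (3.81%) and without the low-Foxp3 libraries (8%), 0 in the 2-group fit and 0 to 2 without a library. Members called higher in tMCAO blood against sham blood numbered 1 as reported, 4 by the Wald test (12.4% of all genes), 7 without the low-Foxp3 libraries (11.2%), 5 with no filter (6.69%), 3 in the 2-group fit (6.67%), 2 with pan-myeloid scaling (1.33%), 2 with the stricter filter (10.1%) and 0 to 3 without a library. In tMCAO brain against sham blood 1 was lower as reported, 2 by the Wald test (8.43% of all genes), limma-voom (3.63%) and the 2-group fit (5.56%), 3 with no filter (3.99%) and without the low-Foxp3 libraries (9.68%), 6 with pan-myeloid scaling, where 67.2% of all genes were called lower, and 0 to 2 without a library. There 1 was higher as reported, 0 by limma-voom and with pan-myeloid scaling, 3 with no filter (10.3% of all genes) and 0 to 2 without a library. With the replicate number as a block, 5 members were lower in tMCAO brain against tMCAO blood (1.36% of all genes), 3 higher in tMCAO blood against sham blood (4.61%) and 2 lower in tMCAO brain against sham blood (3.37%). The numbers do not pair the libraries by the labels, and deviations of same-numbered libraries correlated at 0.304, -0.0285 and -0.0702. Leaving out a library left some comparisons with few or no genes called at all, as given above, so 0 members there is not a result about the members.

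Signs changed as follows. With pan-myeloid scaling, log2 changes in tMCAO blood against sham blood were -1.91 for Ly6c2, -0.53 for Plac8, -1.46 for Lyz2, -2.00 for Spn, -1.88 for Treml4, -0.9998 for Ace, -1.05 for Dusp16, -0.085 for Gngt2 and -0.26 for S100a6. In tMCAO brain against sham blood they were -2.67 for Ly6c2, -1.47 for Lyz2, -0.94 for F10 and -0.65 for Tfpi, and in tMCAO brain against tMCAO blood -0.011 for Lyz2. Spn in tMCAO blood against sham blood was -0.0076 by limma-voom and -0.16 with the replicate block. Without the low-Foxp3 libraries Lyz2 in tMCAO blood was -0.062 and F10 in tMCAO brain -0.83 against sham blood. Leaving out 1 library gave ranges across 0 for Lyz2 in tMCAO brain against tMCAO blood (-0.66 to 1.96), for Ly6c2 (-0.076 to 1.61), Lyz2 (-0.11 to 2.00), Spn (-0.87 to 0.83) and Treml4 (-0.53 to 0.90) in tMCAO blood against sham blood, and for Ly6c2 (-0.19 to 1.40) and F10 (-0.81 to 3.47) in tMCAO brain against sham blood.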
